A study of Mus musculus with 4 samples.

Results

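The genes described here are 10 factors that set or hold the identity of B cells and of germinal center (GC) B cells: Pax5, Ebf1, Irf8, Spib, Bach2, Bcl6, Mef2b, Foxo1, Foxp1 and Ezh2. They are given by name, and all 10 were found among the 32285 genes of the mRNA matrices. The study transferred a mixture of MD4 B cells, whose transgenic receptor binds hen egg lysozyme (HEL), into recipient mice, immunized them with sheep red blood cells coupled to HEL, and sorted HEL-binding CD95+ spleen B cells on day 8. The CD45.1+ part of each mixture was Dock8 wt/wt in every recipient. The CD45.2+ part carried a BCL2 transgene (BCL2.Tg), described as B cell-restricted, and was Dock8 wt/wt in 3 recipients and Dock8 cpm/cpm in 3 others, the latter an ENU mutation that the study describes as DOCK8-null. Recipients of both sexes, 8 to 12 weeks old, were used, and they were themselves CD45.1+ wild-type mice. CD45.1+ cells of the second group were thus wild-type bystanders next to mutant cells. Each sort gave 1 mRNA library shared by the 6 mice, which hashtag antibodies told apart. Sort, allotype, transgene and library therefore cannot be told apart in any comparison of CD45.2+ with CD45.1+ cells. The CD45.1+ sort could also hold cells of the recipients, whose share was not tested.

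PAX5 and EBF1 commit progenitors to the B lineage and keep genes such as Cd79a and Blnk active in mature B cells. IRF8 and SPIB bind composite ETS-IRF elements with or next to PU.1, and SPIB is a close relative of that factor. BCL6 is the repressor without which no GC forms, BACH2 restrains the plasma cell program, MEF2B activates Bcl6, and FOXO1 is needed for the dark zone (DZ), where GC B cells divide, as opposed to the light zone (LZ), where they are selected. FOXP1 is an abundant forkhead factor of naive B cells, and EZH2 is the methyltransferase of Polycomb repressive complex 2 (PRC2), high in dividing GC B cells. Plasma cells and plasmablasts (PC/PB) silence much of this set through PRDM1, itself a target of BCL6.

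The CD45.2+ library held 24241 barcodes and 196679316 UMIs (unique molecular identifiers, each 1 captured mRNA molecule) and the CD45.1+ library 5232 barcodes and 37309131 UMIs, with 38 barcodes in both. Hashtags assigned 6488 CD45.2+ and 3204 CD45.1+ cells to a single mouse. Among barcodes with hashtag counts, 8048 of 14617 CD45.2+ barcodes carried more than 1 hashtag, against 1562 of 4857 CD45.1+ barcodes. Only 57, 44 and 101 CD45.2+ cells came from the mice labelled Dock8 cpm/cpm, and the number depends on the hashtag rule, since a 3-fold rule on hashtag counts gave 229, 160 and 481. Dock8 itself stood at 105, 99.3 and 95.7 CPM there (the usual counts scaled to the total UMIs of the cells summed) and at 98.2, 99.1 and 83.5 CPM in the CD45.2+ cells of the wt/wt mice, so its mRNA level does not check the genotype. The study notes that the wild-type cells were male and the mutant cells female. In the files, 97.4% to 98.0% of CD45.2+ cells labelled wt/wt held a UMI of Xist and 2.72% to 3.29% one of Y-linked genes, against 57.4% to 70.5% and 43.2% to 54.5% of those labelled cpm/cpm, of which 27.3% to 31.7% held both. The sex of the CD45.2+ cells labelled wt/wt therefore went against the note, and the cells labelled cpm/cpm were of no single sex. Among CD45.1+ cells, 0% held both in each mouse. Each genotype result is thus a comparison of mice by their labels. Clustering without the 10 genes gave 19 clusters, which were named after the marker lists they shared most genes with and joined into 4 classes, namely early/activated/memory, LZ, DZ and PC/PB. T cells and a cluster called LZtoPrePC_Memory, whose median UMI number was 0.26 of that of its library, stayed apart. The cluster named LZ4 held 9 LZ4 markers and 8 of EarlyGC1.

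The promoters are shown because the PC/PB levels of most members differ together between the sorts, and because several of the factors are known to bind genes of the others. RefSeq starts on GRCm38.p6 gave 15 promoters for the 10 genes, each from 250 bases before to 50 bases after the start, and 6 of the 15 held at least 1 of 6 motifs searched on both strands. In 1 of the 2 Bcl6 promoters (chr16:23981234-23981533, minus strand), the BCL6-type motif TTCCNNGAA lay at -168 and -88 and the ETS-IRF motif GGAANNGAA at -28. The other Bcl6 promoter (chr16:23988803-23989102), at the annotated 5′ end of the gene, held no match. In the Bach2 promoter (chr4:32417185-32417484, plus strand), ETS-IRF lay at -16 on the other strand. In 1 of the 2 Irf8 promoters (chr8:120736108-120736407, plus strand), the BCL6-type motif lay at -171 on the other strand. The other Irf8 promoter (chr8:120738389-120738688) held no match. The sequences run 5′ to 3′ with the matches in capitals.
Bcl6: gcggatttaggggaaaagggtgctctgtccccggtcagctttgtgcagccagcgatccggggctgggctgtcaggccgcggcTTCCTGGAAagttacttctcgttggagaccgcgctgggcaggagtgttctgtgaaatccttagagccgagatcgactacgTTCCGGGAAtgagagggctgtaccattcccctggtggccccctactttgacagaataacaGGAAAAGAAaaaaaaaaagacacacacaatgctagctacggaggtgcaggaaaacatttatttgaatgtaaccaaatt
Bach2: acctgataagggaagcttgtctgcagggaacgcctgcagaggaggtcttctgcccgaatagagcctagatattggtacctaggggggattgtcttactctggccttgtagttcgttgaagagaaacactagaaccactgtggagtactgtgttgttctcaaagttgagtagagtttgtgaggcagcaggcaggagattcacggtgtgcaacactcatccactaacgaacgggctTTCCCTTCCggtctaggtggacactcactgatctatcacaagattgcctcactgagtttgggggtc
Irf8: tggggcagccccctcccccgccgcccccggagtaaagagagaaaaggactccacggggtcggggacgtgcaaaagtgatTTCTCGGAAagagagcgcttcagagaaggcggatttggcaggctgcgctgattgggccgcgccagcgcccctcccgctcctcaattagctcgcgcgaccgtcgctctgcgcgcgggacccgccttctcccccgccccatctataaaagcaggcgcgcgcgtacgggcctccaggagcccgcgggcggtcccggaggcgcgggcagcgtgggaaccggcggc
Among all 32851 promoters of the reference, 8.24% held the ETS-IRF motif and 4.81% the BCL6-type motif. The IRF motif GAAANNGAA (8.56% of all promoters) was found in an Ebf1 promoter at -154. The EBF motif CCCNNGGGA (6.56%) was found at -92 and -91 of a Foxo1 promoter, where both matches overlap, and at -114 of a Foxp1 promoter. The forkhead motif TGTTTAC (3.65%) and the MEF2 motif TATTTATA (1.7%) were found in none, and Pax5, Spib, Mef2b and Ezh2 promoters held no match to any of the 6. A match describes letters only and does not show binding.

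Levels are CPM of the UMIs summed over the cells of 1 mouse, sort and class. The factors of B cell commitment were high in every B cell class and lowest in PC/PB. Pax5 (chr4:44524757-44710487) stood in the CD45.2+ cells of the 3 wt/wt mice at 209, 236 and 198 CPM in early/activated/memory, 237, 282 and 263 CPM in LZ, 234, 226 and 237 CPM in DZ and 49.0, 45.6 and 26.1 CPM in PC/PB. In each mouse the PC/PB level was the lowest of the 4 by far. Ebf1 (chr11:44617317-45008091) had means of 1023 ± 69 (SD, n = 3), 931 ± 60, 655 ± 38 and 159 ± 50 CPM in the same order, so that it was lower in DZ than in LZ by more than the spread over mice. Irf8 (chr8:120736358-120756694) had means of 584 ± 38, 627 ± 15, 462 ± 30 and 120 ± 44 CPM. Spib (chr7:44525993-44532071) had means of 286 ± 8.0, 317 ± 12, 245 ± 26 and 52.8 ± 14 CPM.

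The GC factors Bcl6, Mef2b and Bach2 were high in DZ and in some of the LZ clusters. Bcl6 (chr16:23965052-23988852) stood at 105, 116 and 114 CPM in DZ, 65.2, 85.2 and 79.7 CPM in LZ, 25.3, 28.2 and 17.1 CPM in early/activated/memory and 18.6, 16.5 and 11.6 CPM in PC/PB. The DZ levels of the 3 mice lay above all LZ levels, and those above all levels in early/activated/memory. In the CD45.1+ cells of the 6 mice, Bcl6 in DZ (127 ± 14 CPM) and LZ (122 ± 24 CPM) did not differ beyond the spread. Among the clusters Bcl6 was highest in LZ2 with 129 ± 14 CPM and DZ1 with 123 ± 27 CPM, which do not differ beyond their spread, and lowest in PC3 with 7.65 ± 4.5 CPM. Mef2b (chr8:70139711-70167488), whose gene overlaps Borcs8 on the same strand and whose counts are uncertain to that extent, was highest in LZ2 with 196 ± 24 CPM and DZ2 with 181 ± 7.8 CPM and lowest in Activated_Memory.a with 10.7 ± 0.21 CPM. In the LZ1 cluster, Bcl6 was at 36.2 ± 8.7 CPM and Mef2b at 16.3 ± 2.9 CPM, far below LZ2. Bach2 (chr4:32238804-32586108), which overlaps Bach2it1 on the same strand, was highest in DZ3 with 270 ± 49 CPM and LZ2 with 256 ± 36 CPM and lowest in PC3 with 18.1 ± 4.6 CPM. It stood at 219 ± 5.6 CPM in LZ4 and at 86.5 ± 7.3 CPM in LZ1.

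The forkhead factors and Ezh2 followed other orders. Foxp1 (chr6:98925338-99522721, overlapping Gm20705) was lower along the classes as listed, from 548 ± 70 CPM in early/activated/memory to 427 ± 46 in LZ, 268 ± 5.9 in DZ and 211 ± 49 in PC/PB, the highest PC/PB mouse (258 CPM) lying next to the lowest DZ mouse (261 CPM). Its highest clusters were LZtoPrePC_Memory with 770 ± 121 CPM and EarlyGC1 with 758 ± 31 CPM. Foxo1 (chr3:52268336-52353221) varied least, between 52.8 ± 13 CPM in PC/PB and 92.8 ± 3.4 CPM in LZ. Ezh2 (chr6:47530139-47595341) stood at 207, 192 and 192 CPM in DZ and at most at 44.8 CPM in any of these mice in the other classes. Within DZ it was highest in DZ2 with 239 ± 14 CPM, then DZ3 with 181 ± 16 CPM and DZ1 with 128 ± 5.9 CPM, each apart from the next, followed by the cycling PC/PB cluster with 108 ± 13 CPM. The plot of levels by class and mouse shows the values of both sorts, and the plot by cluster places LZ2 with the DZ clusters for Bcl6 and Mef2b.

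**Figure D1:**
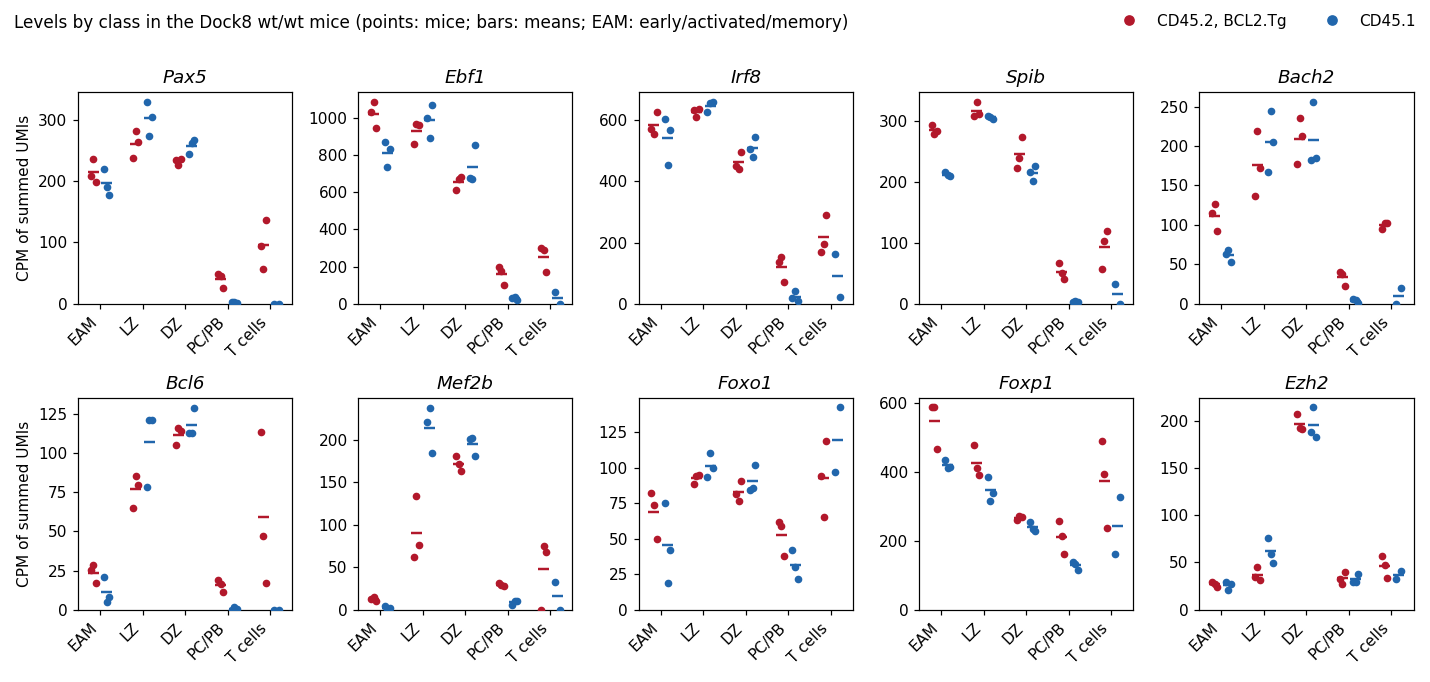
Level of each gene (y axis, CPM of UMIs summed per mouse, from 0) in the early/activated/memory (EAM), LZ, DZ and PC/PB classes and in T cells of the Dock8 wt/wt mice. Points are mice with at least 10 cells, bars are means, CD45.2+ BCL2.Tg cells are red and CD45.1+ cells blue. Pax5, Spib and Bcl6 lie near 0 in the CD45.1+ PC/PB cells and above it in the CD45.2+ ones.

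**Figure D2:**
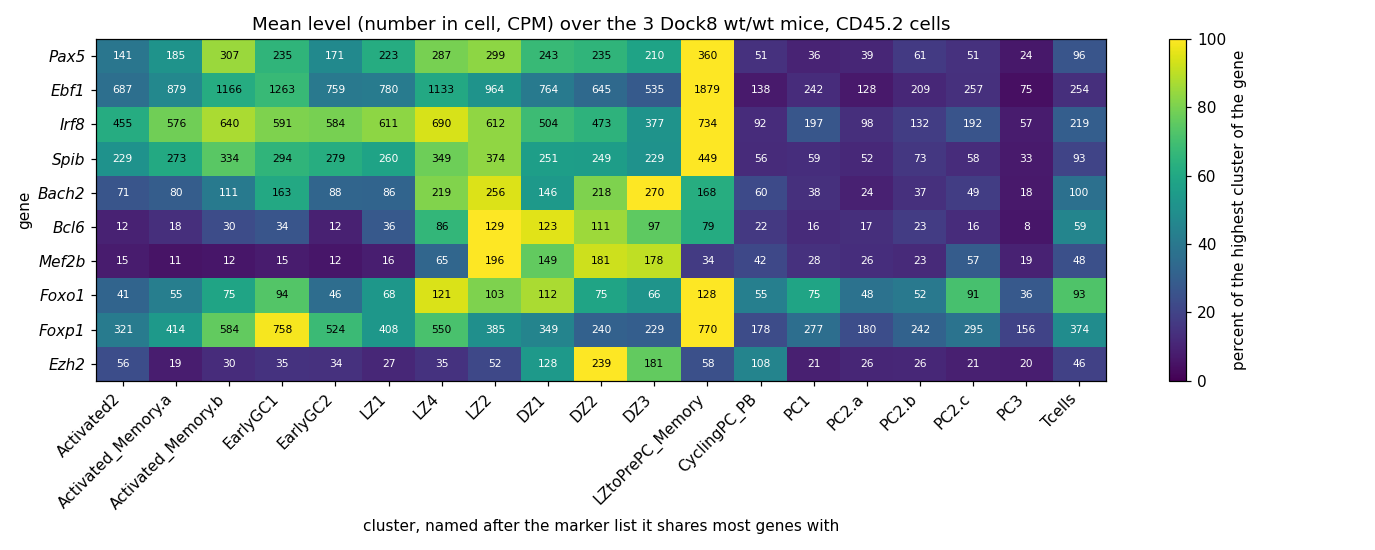
Mean level of each gene (rows) in each cluster (columns) over the CD45.2+ cells of the 3 Dock8 wt/wt mice. The number is the mean CPM and the colour its percent of the gene's highest cluster. Ezh2 peaks in DZ2, Bcl6 and Mef2b in LZ2, and Ebf1 and Foxp1 in LZtoPrePC_Memory.

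The CD45.1+ cells of the 6 mice had the following leading clusters among 14 with enough cells. Bcl6 was highest in LZ2 (138 ± 26 CPM, n = 6) and DZ2 (130 ± 22), Mef2b in LZ2 (248 ± 28), Bach2 in DZ3 (304 ± 70) and Ezh2 in DZ2 (308 ± 34). Foxp1 was highest in EarlyGC1 (737 ± 109 CPM, n = 5). As a description over the 18 B-lineage clusters and 7715 genes, which share libraries and depth, the genes most like each factor were named by Pearson's r of log2(CPM + 10). They were Wapl, Usp7 and Rev1 for Bcl6 (0.976, 0.96 and 0.958), Prkacb, Ikzf1 and Sypl for Bach2 (0.972, 0.969 and 0.969) and S1pr2, Rgs13 and Ildr1 for Mef2b (0.965, 0.965 and 0.963). S1pr2 encodes a G protein-coupled receptor and Rgs13 a regulator of G protein signaling, both of GC B cells. They were Setd2, Trim35 and Spib for Pax5 (0.989, 0.988 and 0.988), Siglecg, Bcl11a and Ablim1 for Ebf1 (0.992, 0.988 and 0.987), Ms4a1, Limd2 and Spib for Irf8 (0.99, 0.985 and 0.982) and Ablim1, Rcsd1 and Ms4a1 for Spib (0.992, 0.989 and 0.988). For Foxo1 they were Pxk, Smg6 and Cpm (0.93, 0.921 and 0.91), for Foxp1 Trim34a, Tbc1d5 and Unc93b1 (0.977, 0.966 and 0.964) and for Ezh2 Ncaph, Dnmt1 and Rnaseh2b (0.957, 0.956 and 0.948), of which Ncaph and Dnmt1 act in chromosome condensation and in copying DNA methylation. Between members, r was 0.972 for Pax5 with Ebf1, 0.903 for Bcl6 with Bach2 and 0.842 for Bcl6 with Mef2b.

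The comparison of BCL2.Tg CD45.2+ with CD45.1+ cells in the same 3 Dock8 wt/wt mice asks whether the factors differ between transgenic and non-transgenic cells of the same class. In PC/PB, 9 of the 10 genes were higher in CD45.2+ cells and Ezh2 was not called, at adjusted p under 0.05 by the quasi-likelihood test of edgeR. Of all 8856 genes tested in PC/PB, 17.6% were called and 9.85% were called higher in CD45.2+ cells. Without mouse wt1 513 of 9124 genes were called, and without wt2 356 of 8853. Pax5 stood at 49.0, 45.6 and 26.1 CPM in CD45.2+ PC/PB and at 2.90, 3.02 and 0.30 CPM in CD45.1+ PC/PB of the same mice (log2 fold change with its SE 4.71 ± 0.49, adjusted p = 0.000121). Spib stood at 67.7, 50.5 and 40.1 CPM against 2.90, 3.78 and 2.08 CPM (4.14 ± 0.32, adjusted p = 2.11e-05). Bach2 stood at 39.7, 37.0 and 22.9 CPM against 5.81, 4.53 and 0.59 CPM (3.66 ± 0.46, adjusted p = 0.000352). In each of these genes the lowest CD45.2+ mouse lay above the highest CD45.1+ mouse.

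Ebf1 stood at 199, 176 and 103 CPM against 30.5, 37.0 and 20.2 CPM (log2 fold change 2.37 ± 0.27, adjusted p = 0.000177). Irf8 stood at 137, 152 and 70.1 CPM against 18.9, 41.5 and 8.91 CPM (2.39 ± 0.42, adjusted p = 0.00289). Mef2b stood at 31.9, 28.6 and 28.4 CPM against 5.81, 9.82 and 10.1 CPM (1.50 ± 0.20, adjusted p = 0.000617). The groups did not overlap in any of the 3, and the share of all genes without overlap was not counted. Bcl6 rested on 3 UMIs in the CD45.1+ PC/PB cells of all 3 mice against 201 in the CD45.2+ ones, a ratio of 27.6 with an exact 95% interval of 9.29 to 135 that covers counting error only, and its adjusted p was 0.00023. The forkhead factors rose least. Foxo1 stood at 61.7, 58.9 and 37.9 CPM against 42.1, 30.2 and 21.4 CPM, with overlap (0.75 ± 0.24, adjusted p = 0.0447). Foxp1 stood at 258, 214 and 161 CPM against 139, 131 and 115 CPM, without overlap (0.57 ± 0.16, adjusted p = 0.0257). Without mouse wt1 the adjusted p was 0.104 for Foxo1 and 0.168 for Foxp1, and without mouse wt2 it was 0.237 and 0.166. Ezh2 stood at 32.8, 27.5 and 39.5 CPM against 29.0, 29.5 and 37.7 CPM (log2 fold change -0.16 ± 0.19, adjusted p = 0.592), and the groups overlapped.

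**Figure D3:**
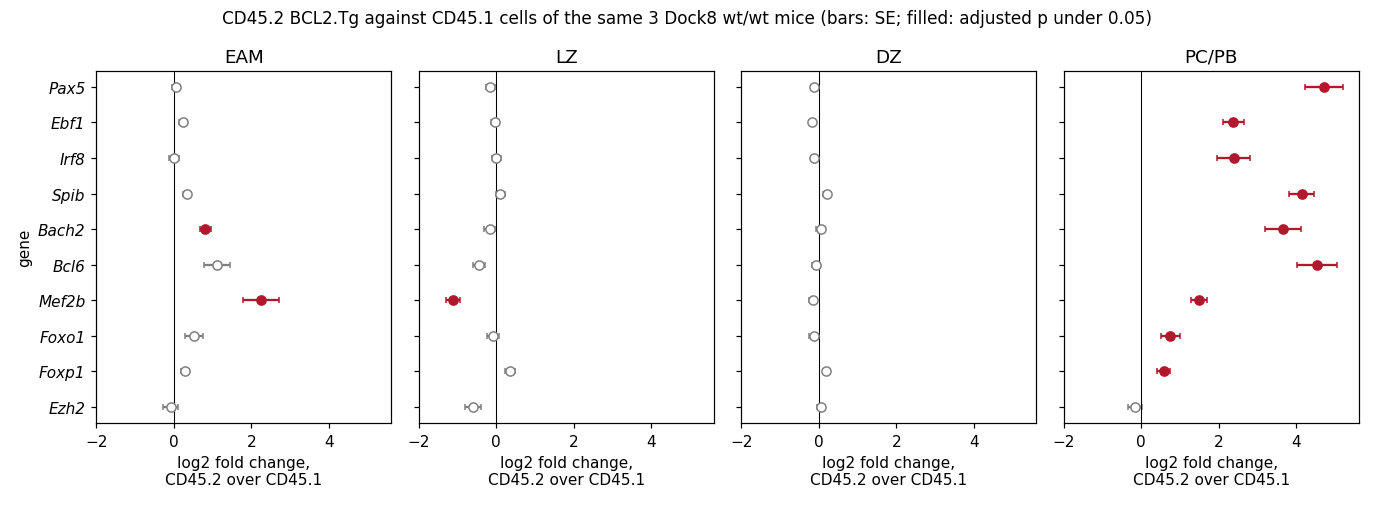
Log2 fold change of CD45.2+ BCL2.Tg over CD45.1+ cells (x axis) for each gene (y axis) in the 4 classes, in the 3 Dock8 wt/wt mice. Bars are SE and filled points passed an adjusted p of 0.05 by edgeR. In PC/PB, Pax5, Bcl6 and Spib lie above 4, and in DZ all points lie between -0.16 and 0.20.

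The PC/PB class was filled differently by the sorts, with 23.7% of the CD45.2+ and 54.9% of the CD45.1+ cells of these mice in PC3. Within single clusters, chosen after the data were seen, Pax5, Ebf1, Irf8 and Spib stayed called in PC2.a (9.8% of all genes called), PC2.b (5.49%) and PC3 (3.9%). In PC3 alone Pax5 differed by 4.74 ± 0.60 (log2, adjusted p = 0.000158) and Spib by 3.19 ± 0.35 (adjusted p = 3.71e-05). Foxo1 (0.25 ± 0.25, adjusted p = 0.676) and Foxp1 (0.25 ± 0.13, adjusted p = 0.34) were not called in PC3.

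The same genes were measured in the T cells beside this result. T cells lack PAX5 and EBF1 but use genes such as Foxo1, Foxp1 and Bach2 themselves. The T cells that passed the sort and kept a hashtag held, in the Dock8 wt/wt mice, 19 Pax5 UMIs in 56 cells of the CD45.2+ library and 0 in 29 cells of the CD45.1+ library. The PC/PB level lay below that of the T cells of the same library for 10 of the 10 genes in CD45.2+ cells. In CD45.1+ cells it did so for 8 of the 10. This says nothing for the genes that T cells use. The share of all genes with this order was not counted, so it is not read as particular to these factors. All T cells of these mice held 10 to 82 UMIs per gene in the CD45.2+ library and 0 to 31 in the CD45.1+ library. The CD45.1+ T cell levels leave out mouse wt2, which had 8 T cells. They rest for Ebf1 on 2 UMIs in wt1 and 0 in wt3. Bach2, Spib and Mef2b each had 1 UMI in 1 of these mice and 0 in the other. In the CD45.2+ library Pax5 was at 40.2 CPM in PC/PB and 95.5 CPM in T cells and Ebf1 at 159 and 254 CPM. In the CD45.1+ library Pax5 was at 2.07 and 0 CPM and Ebf1 at 29.2 and 32.3 CPM. The PC/PB level of Pax5, Ebf1, Irf8, Spib and Bach2 was 15.6% to 29.9% of that in early/activated/memory cells in the CD45.2+ library and 1.06% to 5.92% in the CD45.1+ library. The summed level of 4 B cell markers, Cd79b and Ms4a1 among them, in T cells ranged from 1965 to 3492 CPM in the CD45.2+ and from 40.8 to 548 CPM in the CD45.1+ library. After thinning each cell to 2000 UMIs, 7.21% of CD45.2+ PC/PB cells and 13.1% of CD45.2+ T cells held a Pax5 UMI (24.1% and 25% unthinned, at median depths of 8199 and 3308 UMIs). The thinned share of Pax5 in CD45.2+ PC/PB cells lay below that in 47 T cells. Over the 3 mice the thinned shares were 6.98 ± 1.57% and 12.9 ± 5.11%, which overlap within their SD. Whether the PC/PB share reflects expression of Pax5 was not tested. Hashtags do not mark droplets that hold 2 cells of 1 mouse. The part of free RNA and of such droplets in the difference was not tested.

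**Figure D4:**
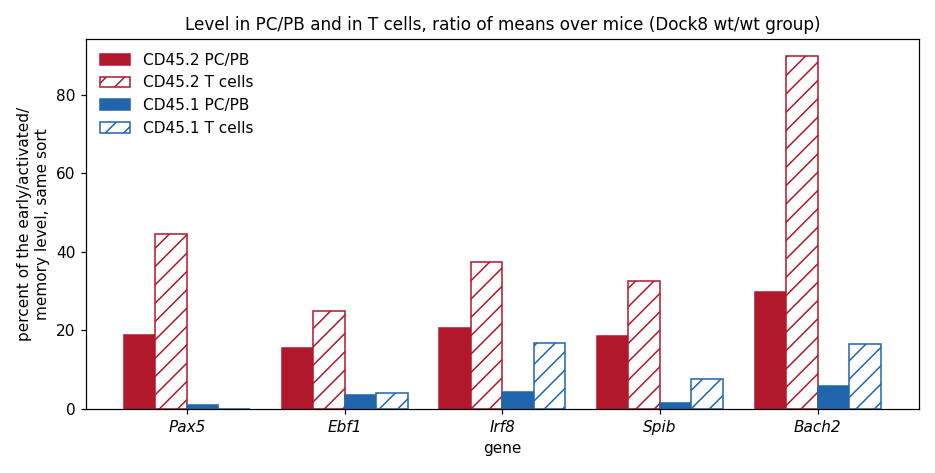
Level in PC/PB cells (filled bars) and in T cells (hatched bars) as percent of the early/activated/memory level of the same sort (y axis, from 0), for 5 genes in the Dock8 wt/wt mice. Bars are ratios of means over mice, with no error drawn, and the T cell means rest on 3 CD45.2+ and 2 CD45.1+ mice. For each gene the red hatched bar is the highest.

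Listed genes linked to the factors were counted in the same class, where 9.85% of all genes were called higher. Among 12 PAX5 and EBF1 targets, 8 were higher in CD45.2+ PC/PB and none lower, led by Fcer2a, the low-affinity IgE receptor CD23 (log2 fold change 4.31 ± 0.40, adjusted p = 6.13e-05), the inhibitory receptor gene Cd22 (3.95 ± 0.40, adjusted p = 0.000103) and Cd72 (3.47 ± 0.31, adjusted p = 5.15e-05). Their median was 2.12, against 0.025 over all genes. Among 20 partner factors 11 were higher, led by Bcl11a (4.20 ± 0.50), Id3 (3.99 ± 0.52) and Zeb2 (2.34 ± 0.46). Of 11 close relatives tested 2 were higher, Irf5 (0.91 ± 0.26) and Mef2c (0.38 ± 0.12). Of 6 BCL6 corepressors 3 were higher, among them Tbl1x (0.79 ± 0.22) and Tbl1xr1 (0.78 ± 0.17), and of 10 PRC2 subunits 2, Phf19 (2.19 ± 0.57) and Aebp2 (0.68 ± 0.18). The counts of relatives and PRC2 subunits are near the share of all genes. Of 10 FOXO1 targets 5 were higher, among them Klf2 (3.44 ± 0.34) and Btg1 (2.99 ± 0.54). Of 10 BCL6 repressed genes 3 were higher, namely S1pr1 (1.69 ± 0.41), Gpr183 (1.63 ± 0.23) and Bcl2 (1.35 ± 0.31). The part of BCL2 transgene reads in the Bcl2 count was not tested in any class. Of the 3 plasma cell factors only Xbp1, the factor that drives secretion, was called, and lower (-0.37 ± 0.11, adjusted p = 0.0324). B cell markers rose with these lists, with 3 of 4 called, among them Ms4a1 at 2.42 ± 0.27. The kinase gene Lck, on the T cell list but also a leading gene of the LZ2 cluster, was called at 3.20 ± 0.68. The summed T cell markers, Lck among them, ranged from 7.9 to 17.0 CPM in CD45.2+ and from 1.8 to 2.9 CPM in CD45.1+ PC/PB cells.

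In LZ, Mef2b was the single factor called, and it was lower in CD45.2+ cells, while 4.24% of all genes were called. Mef2b stood at 62.5, 134 and 76.0 CPM in CD45.2+ LZ cells and at 221, 237 and 185 CPM in CD45.1+ LZ cells (log2 fold change -1.12 ± 0.18, adjusted p = 0.000247). The groups did not overlap. Without mouse wt1 the value was -0.93 with adjusted p = 0.0662. With the mouse as block, 4 of the 10 factors were called and 9.36% of all genes, adding Bcl6 (-0.45, adjusted p = 0.0315), Ezh2 (-0.63, adjusted p = 0.0123) and Foxp1 (0.35, adjusted p = 0.00579). The class was unequally made up, since LZ2 held 85.7% of the CD45.1+ and 43.3% of the CD45.2+ LZ cells of these mice. Within LZ2 alone, Mef2b stood at 199, 218 and 171 CPM against 257, 262 and 243 CPM, without overlap. Its log2 fold change there was -0.35 (unadjusted p = 0.0214, adjusted p = 0.5 by edgeR). In LZ2 alone 0 of the 10 factors were called by edgeR and 0.794% of all genes were. The part of the share of LZ2 in the difference was not tested.

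The listed genes were also counted in LZ, where 4.24% of all genes were called. Of 7 BCL6 repressed genes tested, 4 were higher in CD45.2+ cells, led by Bcl2 (3.31 ± 0.22, adjusted p = 6.14e-11), the receptor genes S1pr1 (2.04 ± 0.26) and Gpr183 (1.75 ± 0.19), and of 10 FOXO1 targets 5 were higher, among them S1pr1 and Ccr7 (2.03 ± 0.48). The transgene of the CD45.2+ cells encodes BCL2, and the part of transgene reads in the Bcl2 count was not tested. Zeb2 (0.99 ± 0.21) was higher and Mybl1 (-0.69 ± 0.20) and Ikzf1 (-0.44 ± 0.12) were lower among partner factors. Of 12 PAX5 and EBF1 targets 1 was higher and 1 lower, the latter being Vpreb3 (-0.47 ± 0.13). Of the T cell check list Lck was lower (-1.12 ± 0.21). Lck was also a leading gene of the LZ2 cluster, so it does not mark T cells alone here.

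In early/activated/memory cells, Bach2 and Mef2b were higher in CD45.2+ cells, beside 1.97% of all genes called. Bach2 stood at 115, 127 and 92.1 CPM against 62.8, 68.3 and 53.4 CPM (log2 fold change 0.81 ± 0.15, adjusted p = 0.00391), without overlap, and without mouse wt1 the adjusted p was 0.0886. Mef2b stood at 12.4, 14.8 and 10.4 CPM against 4.19, 0 and 2.54 CPM (2.25 ± 0.47, adjusted p = 0.0143), and rested on 6 UMIs in the CD45.1+ cells. With any of the 3 mice left out its adjusted p lay between 0.0799 and 0.11. The block by mouse added Spib (0.35, adjusted p = 0.0221), with 3.79% of all genes called. Within the EarlyGC2 cluster alone (3.94% of all genes called), Bach2 (1.35 ± 0.31, adjusted p = 0.00429), Ebf1 (0.63 ± 0.14, adjusted p = 0.00261) and Foxp1 (0.76 ± 0.15, adjusted p = 0.000553) were higher, and in Activated_Memory.a or EarlyGC1 alone edgeR called none of the 10. In Activated_Memory.a alone Mef2b differed by 2.03 (adjusted p = 0.123) and Bach2 by 0.57 (adjusted p = 0.121), and in EarlyGC1 alone Bach2 by 0.23 (adjusted p = 0.81). The sorts filled the class differently, with 37.0% of the CD45.2+ and 21.5% of the CD45.1+ cells in EarlyGC1 and 8.81% and 17.7% in EarlyGC2. Myeloid and erythroid markers moved the other way, with summed levels of 59.3 to 64.8 CPM in CD45.2+ and 110 to 403 CPM in CD45.1+ cells, led by Lyz2 (-5.72 ± 0.59, adjusted p = 4.27e-06), and their part was not tested. Mybl1 (2.72 ± 0.47), Bcl2 (1.47 ± 0.16), Bcl2l11 (0.73 ± 0.12), Btg1 (0.61 ± 0.11) and Xbp1 (0.51 ± 0.13) were the listed genes called higher. The Bcl2 count may hold transgene reads here too, which was not tested.

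In DZ none of the 10 factors was called by edgeR, with log2 fold changes between -0.16 and 0.20, while 3.96% of all genes were called and 6.26% with the block. At an unadjusted p under 0.05 edgeR had 3 of the 10, namely Ebf1 (-0.16), Spib (0.20) and Foxp1 (0.19), and 1488 of all 9198 genes. Bcl6 was at 105, 116 and 114 CPM in CD45.2+ and at 112, 113 and 128 CPM in CD45.1+ cells, and the groups overlapped. In the same cells, Bcl2 (4.51 ± 0.33), S1pr1 (1.65 ± 0.26) and Gpr183 (1.63 ± 0.25) led 4 of 9 BCL6 repressed genes that were higher. The part of BCL2 transgene reads in that Bcl2 count was not tested. Klf2 (1.84 ± 0.17) was among 5 of 9 FOXO1 targets that were higher, with none lower. The complement receptor gene Cr2 was lower (-0.93 ± 0.19), as were Ms4a1 (-0.27 ± 0.07) and Spi1, which encodes PU.1 (-0.35 ± 0.09), while Zeb2 (1.30 ± 0.26) and Pou2af1 (0.34 ± 0.07) were higher. Of the check lists, Lck was lower (-0.58 ± 0.16) and Itgam, on the myeloid list, higher (3.67 ± 0.85). Both were also leading genes of B cell clusters, Lck of LZ2 and Itgam of EarlyGC2.

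Whether the sort difference was unequal among the 4 classes was tested in 1 model with the mouse as block. For 8 of the 10 factors it was unequal, as it was for 16.5% of all genes. The smallest adjusted p of the edgeR F test were those of Spib (1.42e-11) and Pax5 (1.36e-10), and Ezh2 (0.147) and Foxp1 (0.4) were not called. Foxo1, with adjusted p = 0.0486, was not called without the block (0.0875) or without mouse wt1 (0.105), wt2 (0.346) or wt3 (0.0829). Without wt1 582 of 9896 genes were called, and without wt2 659 of 9159, against 1519 of 9188 with all mice.

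The comparison of Dock8 cpm/cpm with wt/wt CD45.2+ cells is that of the study's main question, and could be made in DZ, with 14, 12 and 23 cells of the mice labelled cpm/cpm, and in early/activated/memory, with 17, 17 and 43 cells. LZ with 22, 7 and 22 cells and PC/PB with 1, 5 and 7 cells fell under the minimum of 10 cells in each mouse. Other settings gave values there, with none of the 10 called by edgeR in the whole classes. In LZ, Mef2b differed by -0.84 with the 3-fold rule (adjusted p = 0.151), by -0.46 with hashtag values normalized over each cell (adjusted p = 0.308) and by -1.11 without mouse cpm2 (adjusted p = 0.557). In LZ1 alone with the 3-fold rule, Ebf1 differed by -0.57 (adjusted p = 0.00793), and 75 of 5306 genes were called. In PC/PB, with hashtag values normalized over each cell, the lowest adjusted p was 0.921, that of Bach2. In DZ, Ebf1 was the single factor called, lower in the mice labelled cpm/cpm, where 0.045% of all genes were called. It stood at 582, 439 and 395 CPM against 612, 670 and 683 CPM, with no overlap (log2 fold change -0.61 ± 0.12, adjusted p = 0.0439 by edgeR). The call rests on the way cells were given to mice. With a 3-fold rule on hashtag counts it was -0.42 with adjusted p = 0.104, with hashtag values normalized over each cell -0.24 with adjusted p = 0.381, and in 5 of 6 fits without 1 mouse it was not called, with adjusted p up to 0.543. Spib was at 223, 192 and 143 CPM against 222, 240 and 274 CPM (-0.56 ± 0.17, adjusted p = 0.825) and Bcl6 at 137, 151 and 112 CPM against 105, 116 and 114 CPM (0.14 ± 0.19, adjusted p = 0.985). The groups overlapped in both. No other gene of the lists was called in either class.

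In early/activated/memory cells none of the 10 factors was called by edgeR, with log2 fold changes between -0.33 and 0.88 and a lowest adjusted p of 0.476, and 0.311% of all genes were called. At an unadjusted p under 0.05 edgeR had Bcl6 (0.88 ± 0.37) and Spib (-0.33 ± 0.16), and 750 of all 8682 genes. Bcl6 stood at 58.0, 37.8 and 51.9 CPM against 25.3, 28.2 and 17.1 CPM, with no overlap but only 22 UMIs in the mice labelled cpm/cpm. Their cells lay to 70.1% in EarlyGC1, against 37.0% of the wt/wt cells. EarlyGC1 had the higher Bcl6 level in wt/wt cells (34.2 ± 3.0 CPM, against 17.5 ± 2.1 CPM in Activated_Memory.a, n = 3). Within EarlyGC1, Bcl6 was at 59.6 ± 22 CPM (n = 3, 18 UMIs) in the mice labelled cpm/cpm. Their range of 34.2 to 73.9 CPM overlapped that of the wt/wt mice, 31.1 to 37.1 CPM. The part of the cluster shares in the difference was not tested.

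In the bystander CD45.1+ cells, all Dock8 wt/wt, edgeR called none of the factors between recipients of cpm/cpm and of wt/wt cells. This held for 8 tested in early/activated/memory (0% of all genes called), 10 in LZ (0.0158%), 10 in DZ (0.0586%) and 5 in PC/PB (0.0208%). At an unadjusted p under 0.05 edgeR had Ebf1 in early/activated/memory (-0.32) and DZ (-0.18), Pax5 in LZ (-0.23) and Foxp1 in PC/PB (-0.37). At that threshold it had 181 of 4501 genes in early/activated/memory, 338 of 6334 in LZ, 456 of 6822 in DZ and 286 of 4811 in PC/PB. Ebf1 in bystander DZ cells stood at 682, 657 and 657 CPM against 680, 675 and 853 CPM, overlapping. Of the listed genes, Bcl2 was called in bystander PC/PB cells (-3.04 ± 0.47, adjusted p = 0.0421). The difference between sorts did not differ by the test between the groups of mice for 9 factors tested in early/activated/memory (0.0575% of all genes called) or 10 in DZ (0.0136%). In DZ that difference for Ebf1 was -0.42 ± 0.15 with adjusted p = 1 by edgeR. Ebf1, Spib (-0.49) and Foxp1 (-0.39) in DZ and Foxp1 (0.52) in early/activated/memory had an unadjusted p under 0.05, as did 352 of 7354 genes in DZ and 378 of 5220 in early/activated/memory. The genotype difference of Ebf1 is therefore not shown to be particular to the mutant cells.

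**Figure D5:**
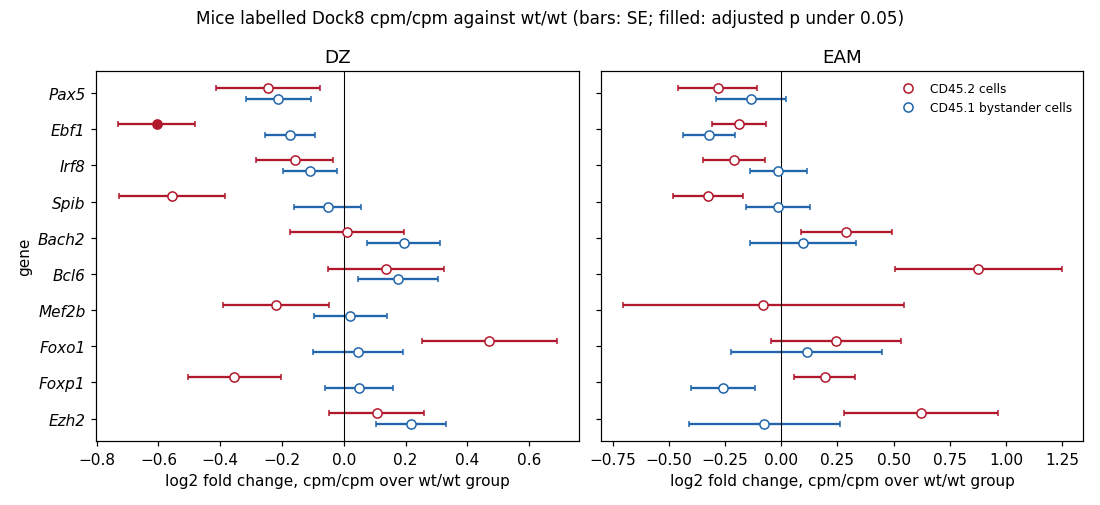
Log2 fold change of the mice labelled Dock8 cpm/cpm over wt/wt (x axis) for each gene (y axis) in CD45.2+ cells (red) and in CD45.1+ bystander cells (blue) in DZ and early/activated/memory (EAM). Bars are SE and filled points passed an adjusted p of 0.05 by edgeR. Ebf1 in CD45.2+ DZ cells, at -0.61, is the only filled point, and Bcl6 and Mef2b of the EAM bystander cells were too low to be tested.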

How the data were processed

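Spleen B cells sorted from 6 recipient mice were measured by 3′ single-cell RNA sequencing, with 1 library per sort and hashtags for mice. The authors deposited raw UMI counts per gene and barcode and hashtag counts, made with Cell Ranger 5.0.1 on mm10 per the labels, which also name Seurat 4.0. The 10 genes and the gene lists were chosen with earlier results of these data known.

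Hashtags were called with HTODemux (quantile 0.99, Seurat 5.3.0), keeping singlets with under 10% mitochondrial counts and 100 to 5500 genes. Clustering used more cells, 10911 CD45.2+ and 4459 CD45.1+, which passed the same filters and were assigned by at least 1 of the hashtag rules. Both libraries were merged for it without the integration that the study used. Scrublet called 4 and 5 further doublets, and none were removed for it. SCTransform (0.4.2; 3000 variable genes without the 10 genes and sex genes, 30 components, resolution 0.9, seed 1) gave clusters. A name needed at least 3 genes of the study's marker lists among a cluster's 50 leading genes.

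Counts were summed per mouse, sort and class with at least 10 cells and tested with edgeR 4.0.16 (TMM, filterByExpr, quasi-likelihood), Benjamini-Hochberg adjusted at 0.05 over all genes. The mouse is the replicate. Totals per mouse and sort ranged from 342465 to 18036775 UMIs. Class and cluster levels are descriptions without a test, since clusters were made from these cells. Named genes were the 10, Dock8, the 3 most correlated with each, and up to 3 called genes with the largest fold changes per list and comparison, of which a few are not reported here. On simulated counts, 2-fold changes were recovered in 75.3% (sort, LZ, 7150 genes) and 46.8% (genotype, DZ, 8890 genes) of cases and 4-fold changes in 99.0% and 86.5%. Alternatives were other hashtag rules, filters, size factors, DESeq2 1.42.0, the mouse as block, another resolution, single clusters and leaving out each mouse. Both sorts came from the same animals, so mouse numbers pair the samples across sorts, and deviations of a mouse correlated best with its own in 11 of 12 cases (own r 0.065 to 0.707).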

Additional observations from a re-analysis of the deposited data

Results flagged for a closer look

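For 8 of the 10 factors the difference between the sorts was unequal among the 4 classes by the edgeR F test, with adjusted p of 1.42e-11 for Spib, 1.36e-10 for Pax5, 2.24e-09 for Ebf1, 9.9e-09 for Bach2, 1.18e-08 for Mef2b, 9.84e-08 for Bcl6, 1.63e-06 for Irf8 and 0.0486 for Foxo1. Foxo1 was not called without the replicate block (0.0875) or without wt1 (0.105), wt2 (0.346) or wt3 (0.0829).

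Single mice stood apart from the other CD45.1+ samples, by Dixon's ratio of gap to range over the 6 mice of both recipient groups, in 4 of 40 sets of 1 gene and 1 class, and chance marks about 1 in 20 such sets. Bcl6 was at 20.9 CPM in early/activated/memory cells of CD45.1+ mouse wt1, Ebf1 at 853 CPM in DZ cells of CD45.1+ mouse wt3, Ezh2 at 75.9 CPM in LZ cells of CD45.1+ mouse wt1 and Spib at 247 CPM in LZ cells of CD45.1+ mouse cpm1.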

How the results depend on the processing

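By edgeR, with the mouse as replicate block, 4 instead of 1 of the 10 factors were called between the sorts in LZ, and the block moved no other count in whole classes beyond 1.5 times. In LZ 2 were called with the 3-fold hashtag rule or hashtag values normalized over each cell, 0 in LZ2 alone with or without the block, and 0 to 1 without 1 mouse (0 without wt1). In early/activated/memory, where 2 were called, there were 4 with the 3-fold rule or no filter on low counts, 1 with DESeq2 (which gave Mef2b no adjusted p) or resolution 1.2, 0 in Activated_Memory.a or EarlyGC1 alone with or without the block, and 0 to 1 without 1 mouse (0 without wt1). In PC/PB the count was 4 instead of 9 in PC2.b alone with or without the block, where 7 and 8 were tested. In DZ it was 1 instead of 0 in DZ1 alone with the block and with per-cell hashtag values. Between genotypes in DZ, Ebf1 was lost, leaving 0 called, with the 3-fold rule (also in DZ2 alone), DESeq2 size factors, per-cell hashtag values or the highest doublet scores removed, and 0 to 1 were called without 1 mouse, the call staying without cpm1. The cause was not tested. Single clusters were chosen after the data were seen. Of 1831 values of single factors, 1772 kept direction and side of the threshold, 43 lost and 16 gained a call, and none reversed. Genotype comparisons rest on few cells, and those labelled cpm/cpm were of no single sex, which limits what the comparisons can show. The sorts differ in library, allotype and transgene at once, and the CD45.1+ sort could also hold cells of the recipients.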
